A study of Mus musculus with 4 samples.

Results

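The regions described here were intronic stretches of open chromatin that were called as ATAC-seq peaks in both d2 libraries and in neither d4 library of differentiating mouse embryonic stem cells (mESCs). They are termed d2-only intronic regions. They were chosen by the peak calls themselves. Peaks that shared at least 1 bp, from any of the 4 libraries, were joined to a region, and a region was kept if it lay more than 1000 bp from every transcript start, touched no exon and lay within a gene body of the GENCODE M21 annotation (mouse build mm10). This left 1614 of 40910 regions, out of 9739 intronic distal regions in all. Of all regions, 13.8% were called only at d2, and of the intronic distal regions 16.6% were. These shares are what the rule fixed and are given as a description.

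All 4 libraries came from the ES-E14TG2a line, a feeder-independent mESC line, and the labels named no mutation or transgene. The d4 cells had been exposed to Activin A, BMP4 and VEGF to drive them toward cardiac mesoderm, and the d2 cells were embryoid bodies in serum-free medium that had not yet received these factors. Each time point had 2 libraries, from 2 independent differentiation experiments. The study compared both days to look for regulatory elements of the endothelial cells that appear between them.

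ATAC-seq marks DNA that a transposase can reach, and distal open regions often are enhancers, short sequences that bind transcription factors and act on a promoter at a distance. Many enhancers sit in introns, of the gene they act on or of a neighbour. When mESCs leave naive pluripotency, OCT4 (Pou5f1) and SOX2 move, together with factors such as OTX2 and the ZIC proteins, to enhancers of the primed epiblast, and these elements are known to close as mesoderm forms and GATA, ETS and other lineage factors take over. The libraries were of mixed populations, so a region open in fewer cells and a region less open in each cell cannot be told apart.

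The sequences that follow show what some d2-only intronic regions held at or near the summit, the base of highest fragment coverage. The first set gives 6 members whose sequence came among the closest to the composite site of OCT4 and SOX2, a SOX half-site followed directly by the octamer. Capitals mark the composite match, and the bases around it are shown as context. These sequences are centred on the match and not on the summit.
Ebf1, chr11:44841862-44841915, plus strand: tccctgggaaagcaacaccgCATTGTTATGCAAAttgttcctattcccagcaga
Pak7, chr2:136375499-136375552, plus strand: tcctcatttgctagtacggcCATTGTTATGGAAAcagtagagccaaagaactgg
Ctnnd2, chr15:30908173-30908226, plus strand: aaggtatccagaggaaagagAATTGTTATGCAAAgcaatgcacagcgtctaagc
Suclg2, chr6:95490507-95490560, minus strand: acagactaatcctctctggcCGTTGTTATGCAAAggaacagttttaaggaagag
Fbxl17, chr17:63176597-63176650, minus strand: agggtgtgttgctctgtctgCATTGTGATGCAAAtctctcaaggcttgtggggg
Pdcl2, chr5:76321607-76321660, minus strand: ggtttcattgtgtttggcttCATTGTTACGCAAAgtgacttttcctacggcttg

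The Ebf1 site matched the composite without a mismatch and the other 5 shown with 1 mismatch. Across all members 38 held the composite with at most 2 mismatches, of which 1 had none, 7 had 1 and 30 had 2. The second set gives the strongest member with each of several other motifs, as 101 bases centred on the summit. These motifs were more frequent here than in intronic regions called only at d4. Capitals mark every match of the motif named. Enox1 was the strongest with an E-box of the letters CAGGTG, which is bound by the ZEB and SNAI zinc finger repressors and by some bHLH proteins, and also the strongest with the ZIC motif CAGCAGG. Both lie there on the other strand, as CACCTG and CCTGCTG. The region in the lincRNA gene Gm13465 was the strongest with the octamer ATGCAAA of OCT factors. The region in Macrod2 was the strongest with the OTX motif CTAATCC, on the other strand as GGATTAG.
Enox1, chr14:77250810-77250910, plus strand: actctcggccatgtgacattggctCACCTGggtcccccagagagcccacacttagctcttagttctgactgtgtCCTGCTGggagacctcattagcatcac
Gm13465, chr2:45736460-45736560, plus strand: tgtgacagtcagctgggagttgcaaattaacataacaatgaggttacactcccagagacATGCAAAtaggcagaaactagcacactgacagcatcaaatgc
Macrod2, chr2:142303430-142303530, plus strand: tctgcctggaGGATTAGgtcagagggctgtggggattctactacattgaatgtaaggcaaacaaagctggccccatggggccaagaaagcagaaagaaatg

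The libraries held 22511 and 21299 peaks at d4 and 26865 and 24544 peaks at d2. Promoter calls of marker genes were set against the labelled days. Of 6 pluripotency markers, 2 and 3 had a promoter called at d4 and 5 and 6 at d2, with the Pou5f1 and Zfp42 promoters called at d2 alone. Of 5 endothelial markers, 3 (Kdr, Cdh5 and Pecam1) and 2 (Kdr and Tek) were called at d4, and Kdr alone in each d2 library. Only Kdr was called in both d4 libraries, so no endothelial promoter was called in both d4 libraries and absent at d2. The counts of primed epiblast and mesoderm promoters overlapped between the days, while single promoters of the primed epiblast and endoderm sets were called at d2 alone. Of 5 primed epiblast markers 3 were called in each d4 library, and 3 and 5 at d2. The Otx2 promoter was called in both d2 libraries and in no d4 library. The Fgf5 promoter was called in both d4 libraries and in d2 replicate 2 alone of the d2 libraries. Of 4 mesoderm markers 1 and 3 were called at d4 and 2 and 4 at d2. Of 3 endoderm markers 2 were called in each d4 library and 3 in each d2 library, with the Foxa2 promoter called at d2 alone. Of 3 neural markers, 2 were called in every library. The number of reads per region is unknown, because the files list peaks and not reads, so no test of d4 against d2 was made for a single region. With 2 libraries against 2, an exact permutation test could not have gone below 0.333.

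For each peak the number of fragments over the summit (the pileup) was recovered from the peak caller's fold enrichment and p-value and was divided by the local background, the number of fragments expected there. This ratio was the measure of signal. In the d2-only intronic regions the median pileup was 14 fragments in each d2 library, with a range of 6 to 50 in replicate 1 and 6 to 59 in replicate 2. The median ratio was 15.6 and 17.2. The 544 intronic regions called in all 4 libraries had a median ratio of 14.5 and 14.4 at d4 and of 16.3 and 18.3 at d2.

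The members' ratios in both d2 libraries went together across regions, which are not independent replicates (Pearson r of log2 ratios 0.672, Spearman rho 0.636, n = 1614 regions). The summits of both libraries lay a median of 41 bp apart, and the median region was 256.5 bp wide. The background was 0.755 and 0.744 fragments at d4 and 0.568 and 0.483 at d2, so the d4 libraries were the deeper ones by this measure. At this genome-wide background the smallest pileup that was called at d4 gave a ratio of 9.27 or 9.41, against 10.6 and 12.4 at d2. Where the local background was higher, a lower ratio was enough, and members were called at d2 with ratios down to 5.34 and 5.65. A d2 ratio is therefore not on the scale of the d4 libraries and does not say whether a region of that ratio would have been called at d4. The lower of the d2 ratios was above 9.41 in 1471 members (91.1%). It was above 2 times this value in 332 (20.6%), above 3 times in 20 and above 4 times in none. Any d2 peak called at the genome-wide background passed 9.41 by construction, so these counts are only a description. The nearest d4 peak lay a median of 24136 bp away, and 50 members had one within 1 kb.

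**Figure D1:**
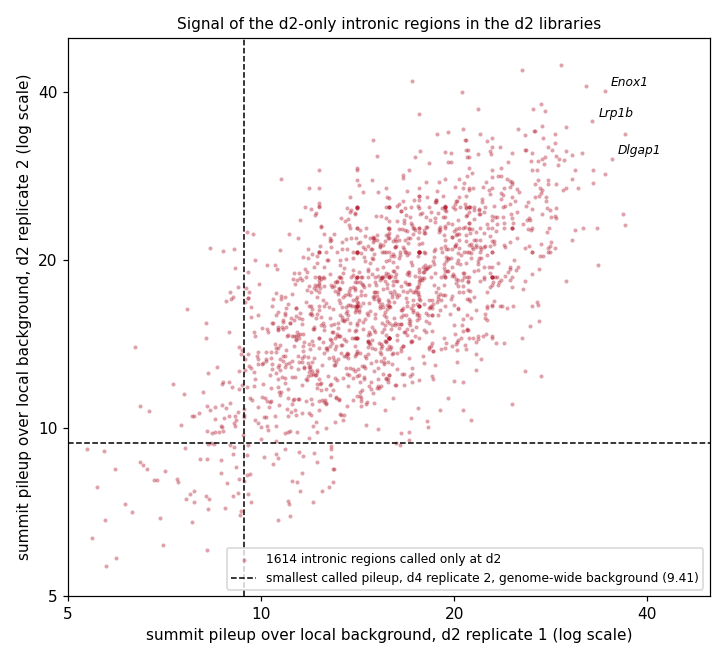
Each point is 1 of the 1614 d2-only intronic regions, with its summit pileup over the local background in d2 replicate 1 (x axis) and d2 replicate 2 (y axis), both on log scales. The dashed lines stand at 9.41, the ratio of the smallest called pileup in d4 replicate 2 at its genome-wide background. Of the points, 91.1% lie above and to the right of both. The d2 ratios are not on the scale of the d4 libraries, so the lines do not show what would have been called at d4. Enox1, Lrp1b and Dlgap1 stand at the upper end.

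The edges of the rule were not sharp. The member with the lowest −log10 q in either d2 library had a value of 3.08, just above the calling limit, and a lower ratio of 8.46. Just outside the rule, 2719 intronic distal regions were called in a single d2 library (1715 in replicate 1 and 1004 in replicate 2), with a median ratio of 14.0. A further 315 were called in both d2 libraries and in 1 d4 library, with a median ratio of 11.9 in that d4 library and a median lower ratio of 14.8 at d2. On the distance limit, the member closest to a transcript start lay 1007 bp away with a lower ratio of 15.0, and the farthest of 228 d2-only regions inside the limit lay 993 bp away with 14.7. The count depended on each d2 library. Taken from d2 replicate 2 without replicate 1, 2641 regions met the rule, and from d2 replicate 1 without replicate 2, 3375 did.

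The strongest members were ranked by the lower of their d2 ratios. The first lay in intron 1 of Enox1, which encodes a cell surface oxidase (chr14:77250698-77251009), 1305 bp from the nearest transcript start. It had pileups of 27 and 45 and ratios of 34.3 and 40.2 in the d2 libraries, and the nearest d4 peak lay 87493 bp away. A region in intron 47 of Lrp1b, a member of the LDL receptor family, had ratios of 32.8 and 35.5 (chr2:40910901-40911285). One in Cntnap5c, of the contactin-associated family of neurexin-like proteins, had 32.1 and 41.0.

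Dlgap1, a scaffold protein of the postsynaptic density, held one with 35.2 and 30.4, and Lrrtm4, a synaptic organiser, one with 29.9 and 34.6. Others among the 10 strongest lay in Tbl1x, part of the NCoR and SMRT corepressor complexes (29.9 and 31.3), and in Pde3b, a cyclic nucleotide phosphodiesterase (29.7 and 30.2). Smco2 held one with 30.5 and 30.8, 1343 bp from the nearest transcript start. Another lay in a gene model with no name of its own.

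Of the 1614 members, 1416 lay in protein-coding genes. They fell in 1080 genes, of which 849 held 1 member, 164 held 2 and 67 held 3 or more. Of the 3972 protein-coding genes with any intronic distal region, 27.2% held a d2-only one, and 27.8% held a d4-only one, with a peak in both d4 lists and none in the d2 lists (1706 regions in all). The sets of genes overlapped. A total of 313 genes held both kinds, 29.0% of the genes with a d2-only region and 28.3% of those with a d4-only region. Genes with a d2-only region were long, with a median of 130 kb, against 83.4 kb for all 3972 genes. Genes with a d4-only region were about as long, with a median of 132882 bp. A longer gene has more room for any region.

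Anks1b, which encodes an ankyrin repeat protein of synapses, held the most, 9 of its 14 intronic distal regions, while 1 was d4-only. They were spread from 146 to 991 kb from the start of this 1100 kb gene. Their lower ratios ran from 8.95 to 24.9. The strongest had ratios of 24.9 and 25.5 (chr10:90709550-90709810), and the weakest had 8.95 and 17.0.

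Adgrl3 (latrophilin 3), an adhesion receptor that binds teneurins and FLRT proteins, held 6 d2-only regions among 8, all with lower ratios of at least 15.0. Its strongest lay at chr5:81556090-81556480 in intron 7, with pileups of 27 and 24 and ratios of 29.0 and 29.6. Ephb1, a receptor for ephrin-B ligands, held 6 among 7, with no d4-only region. A pair of these 6 lay only 109 bp apart. The lower ratios of the 6 ran from 10.6 to 16.3. Clybl, a mitochondrial lyase, held 6 among 11 and no d4-only region, within 47.6 to 161 kb of its start, and at 2.72 members per 100 kb it was the densest of these genes. Together these 3 genes held 1 d4-only region.

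In other genes both kinds lay side by side. Macrod2, an ADP-ribose hydrolase, held 6 d2-only and 7 d4-only regions among 28. The d4-only regions were gathered in the nearer part of the gene body and 5 of the d2-only ones lay more than 1000 kb from its start. Ptprn2, a phosphatase-like protein of secretory granules, held 6 d2-only and 10 d4-only regions among 29. Ebf1, a transcription factor of B lymphocytes and mesenchyme, held 5 d2-only and 1 d4-only region among 10, all 5 in intron 6. Slit3, a secreted ligand of ROBO receptors, held 5 among 9, and Dlgap1 held 4 among 15. The gene model Gm20388, which spans many named genes, held 7 and is not described further.

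**Figure D2:**
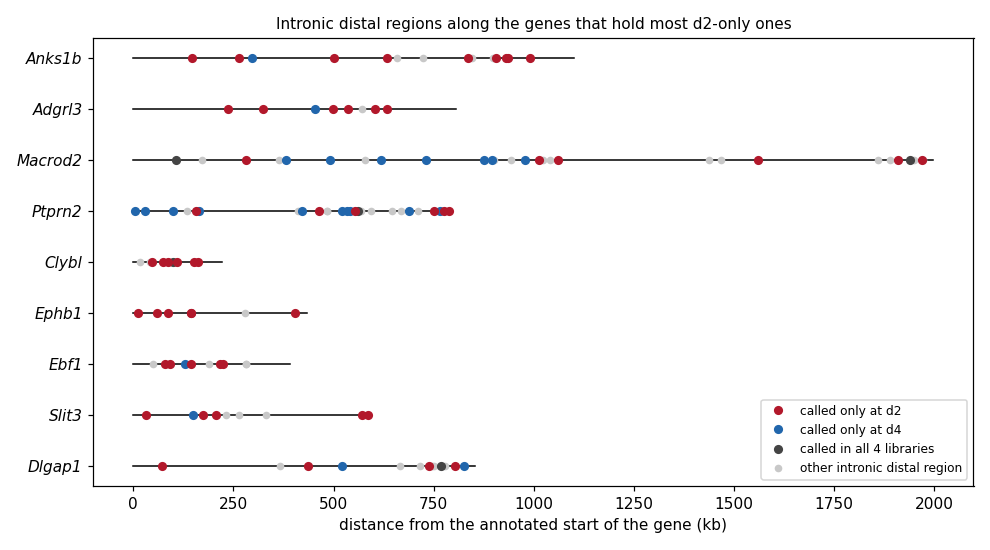
The 9 named genes with the most d2-only intronic regions are drawn as lines from their annotated start, with the distance in kb on the x axis. Dlgap1 stands for several genes with 4, as the one with the highest sum of lower ratios. Points are intronic distal regions, coloured by the libraries that called them, and d2-only regions are spread along most of Anks1b and Adgrl3, while in Macrod2 the 7 d4-only regions lie between the d2-only ones.

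Position within the gene differed little from that of d4-only regions. The first intron held 31.6% of the members that could be placed (95% Wilson interval 29.3 to 34.1%), against 33.0% of d4-only intronic regions, a difference of -1.33 percentage points (95% interval -4.74 to 2.08). It was lower than in regions called in all 4 libraries, at 38.7%, by -7.04 points (-12.2 to -2.03). The median intron that held a member was 32467 bp long. The median distance to the nearest transcript start was 12.7 kb (95% interval 11.6 to 13.5 kb) in d2-only intronic regions, 12.8 kb in d4-only ones, 15.6 kb in d2-only intergenic regions (n = 1819) and 8.52 kb in intronic regions called in all 4 libraries. The intervals in this text cover counting error only, since regions of the same genome are not replicates.

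Hosts of d2-only but not d4-only regions had a promoter called in all 4 libraries about as often as all 3972 genes. The 313 genes that held both kinds were left out of both sets below, and 230 of them (73.5%) had such a promoter. Of 767 genes that held a d2-only but no d4-only intronic region, 452 (58.9%, 95% Wilson interval 55.4 to 62.4%) had a promoter called in all 4 libraries. Of 793 genes with a d4-only but no d2-only region, 512 (64.6%, 61.2 to 67.8%) did. The difference was -5.63 points (95% interval -10.4 to -0.811), with 59.3% among all 3972 genes. Its interval included 0 without d2 replicate 2 (-4.41 points), without d4 replicate 1 (-3.55 points) and without d4 replicate 2 (-4.23 points). A promoter called only at d2 was found for 67 (8.74%) of the hosts of d2-only regions and 54 (6.81%) of the hosts of d4-only regions, a difference of 1.93 points (-0.741 to 4.63).

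The sequence at the summits was not used to choose the regions and so could be compared. Windows of 100 bp on each side of the summit were searched on both strands for 30 motifs, and shares of windows with a match were compared between d2-only intronic regions and 3 other classes. A difference is called here where its interval, widened for 90 comparisons, left out 0. Against d4-only intronic regions 9 motifs were higher, 5 were lower and 16 were not called. Against d2-only intergenic regions none of 30 was called. A motif match is a description of letters and not of binding.

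The E-box CAGGTG differed most among the motifs that were higher. It lay in 29.7% of d2-only intronic regions (27.5 to 32.0%, 95% Wilson interval), against 6.15% (5.11 to 7.40%) of d4-only intronic regions, a difference of 23.5 points (widened interval 19.1 to 27.9). In windows 2000 bp from the same summits the share was 13.1% beside d2-only regions and 14.3% beside d4-only regions, so the E-box stood above its surroundings at d2-only summits and below them at d4-only summits. Over all 9739 intronic distal regions it was 17.4%. Other E-boxes did not follow. The letters CAGCTG, bound by many bHLH proteins, lay in 21.4% of d2-only and 21.5% of d4-only regions, a difference of -0.137 points (widened interval -5.04 to 4.79). The E-box CATCTG had 16.6% and 21.0%, a difference that was not called (-4.44 points, widened interval -9.10 to 0.26).

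The ZIC motif CAGCAGG lay in 26.3% of d2-only and 14.2% of d4-only intronic regions, a difference of 12.0 points (7.23 to 16.8), with 5.82% in the windows 2000 bp from d2-only summits and 18.3% over all intronic distal regions. ZIC2 is a zinc finger factor of pluripotent and neural cells. The ZIC motif and the E-box share letters, and their matches overlapped in 62 members. Leaving these matches aside, 371 members (23.0%) still held a ZIC match and 432 (26.8%) an E-box match.

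Sites for OCT4 and SOX2 were rarer. The octamer ATGCAAA was found in 9.98% of d2-only and 2.99% of d4-only intronic regions, a difference of 6.99 points (4.09 to 10.1), with 3.50% in the windows beside d2-only summits and 5.34% over all intronic distal regions. The OCT4-SOX2 composite, with at most 2 mismatches, was found in 2.35% (38 regions) and 0.117% (2 regions), a difference of 2.24 points (0.964 to 3.93), with 0.279% beside the summits and 0.739% over all intronic distal regions. Of the octamer matches, 17 members held one within a composite match. The SOX motif AACAATG had 5.89% and 3.17% (2.72 points, 0.219 to 5.36), with 3.47% beside the summits and 3.68% over all intronic distal regions. The motif CAAGGTCA of ESRRB, a nuclear receptor of naive cells, had 1.49% and 0.645%, which was not called (0.842 points, -0.477 to 2.35), and it had the same share of 1.49% beside the d2-only summits.

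The OTX, KLF, SP and GRHL motifs were higher too. The OTX motif CTAATCC, that of OTX2 of the primed epiblast and the anterior neural plate, was found in 6.44% of d2-only and 2.29% of d4-only regions (4.16 points, 1.73 to 6.78), with 1.67% beside the summits and 3.55% over all intronic distal regions. Without d2 replicate 2 the OTX difference was 2.75 points. The KLF motif CCACNCCC had 11.7% and 7.21% (4.50 points, 0.994 to 8.08), with 9.82% over all intronic distal regions. The SP motif CCCGCCC had 7.62% and 3.11% (4.51 points, 1.83 to 7.36), and 6.13% over all. Regions called in all 4 libraries held KLF in 13.6% (-1.89 points, -8.26 to 3.38, not called) and SP in 18.4%. The motif AACCNGTT of the GRHL factors, which act in epithelia and in the epiblast, had 2.85% and 0.996% (1.85 points, 0.186 to 3.75), and 1.62% over all. The SOX and GRHL calls were lost without d2 replicate 1 (1.52 and 1.10 points) and without d2 replicate 2 (1.28 and 1.16 points).

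The motifs that were lower in d2-only than in d4-only regions were GATA, ETS, TEAD, forkhead and AP-1. None of these 5 was called against intronic regions called in all 4 libraries, and the T-box (-1.47 points) and MEF2 (-0.159 points) motifs were not called against d4-only regions. The GATA motif AGATAA, that of the GATA factors of mesoderm, endoderm and blood, lay in 7.06% of d2-only and 37.4% of d4-only intronic regions, a difference of -30.3 points (widened interval -34.9 to -25.6). The windows 2000 bp from the d2-only summits held it in 10.6%, and all intronic distal regions in 17.7%. The ETS motif AGGAAGT had 5.82% and 12.7% (-6.90 points, -10.4 to -3.44), with 8.29% over all intronic distal regions. The TEAD motif CATTCCA had 3.28% and 8.38% (-5.10 points, -7.98 to -2.31), with 4.95% over all. The forkhead motif TGTTTAC had 3.16% and 7.68% (-4.52 points, -7.32 to -1.81), with 4.71% over all, and the AP-1 motif TGANTCA had 6.88% and 10.8% (-3.91 points, -7.34 to -0.489), with 8.74% over all. The AP-1 call was lost without d4 replicate 1 (-3.05 points). In d2-only regions the ETS, TEAD, forkhead and AP-1 shares lay close to those beside the summits, 4.93%, 3.25%, 3.00% and 6.82%.

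**Figure D3:**
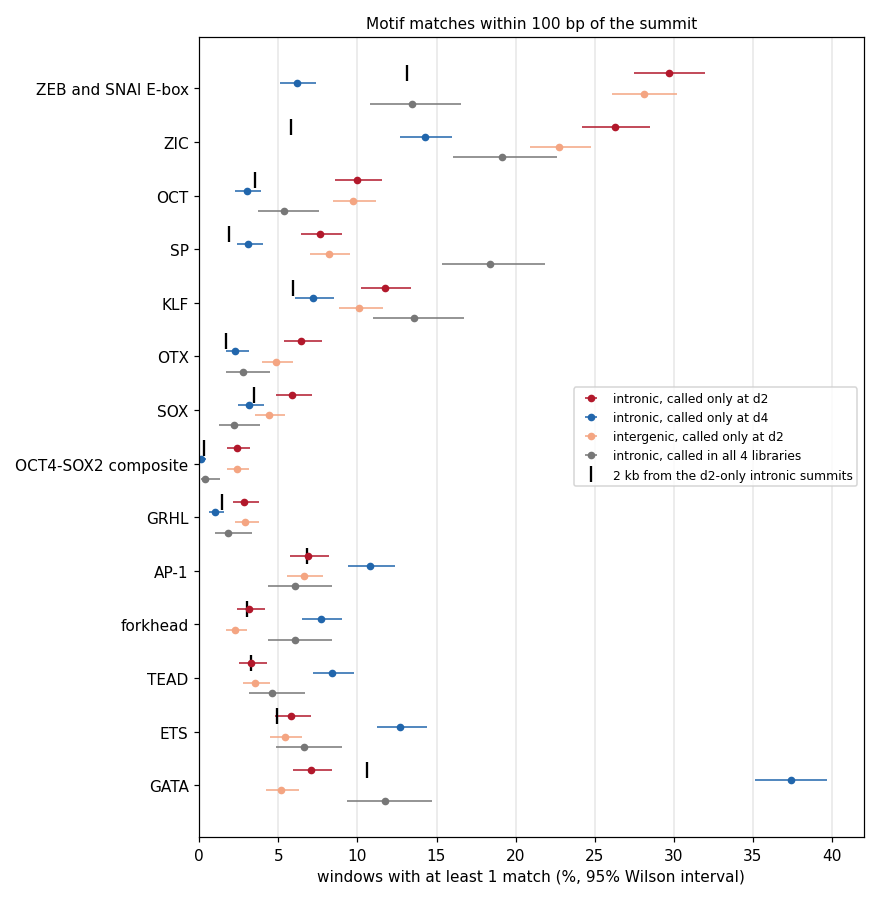
For the 14 motifs that differed between d2-only and d4-only intronic regions, points give the share of windows with a match in each of 4 region classes, in percent, with 95% Wilson intervals, and black ticks give the share 2 kb from the d2-only summits. The d2-only intronic and d2-only intergenic regions lie close together in every row, and GATA stands at 37.4% in d4-only regions against 7.06% in d2-only intronic regions.

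The shares depended little on which library's summits were used. With summits of d2 replicate 1 and d2 replicate 2, the E-box CAGGTG lay in 29.7% and 28.9% of the members, the ZIC motif in 26.2% and 26.5%, the octamer in 9.67% and 9.79%, and GATA in 6.63% and 6.82%. With summits of d4 replicate 1 and d4 replicate 2, GATA lay in 36.5% and 37.6% of d4-only intronic regions and the E-box CAGGTG in 5.63% and 6.21%. These are the same regions with the window moved, so the values show the effect of the summit and not a spread between replicates.

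Matches gathered at the summit. In d2-only regions the E-box CAGGTG had 44.0 matches per 1000 regions in the 20 bp just before the summit, against 5.86 in d4-only regions. At the outer ends, the values were 11.2 and 13.5 at 490 bp before the summit, and 13.6 and 11.1 at 490 bp past it. The ZIC motif reached 46.5 matches per 1000 d2-only regions 30 bp past the summit and 22.3 in d4-only regions, where it also stood above its outer values. The GATA motif had 4.96 matches per 1000 in the 20 bp just before the summit of d2-only regions, and 59.8 in d4-only regions. The d2-only value was below the 15.5 found 490 bp before the summit and the 11.8 found 490 bp past it.

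**Figure D4:**
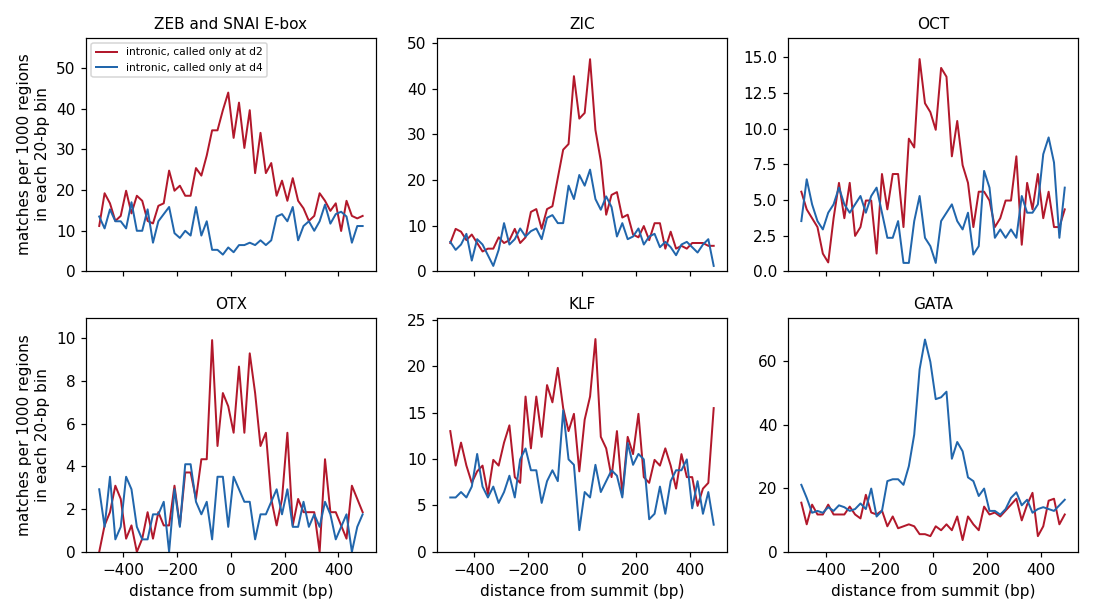
Matches per 1000 regions in bins of 20 bp are plotted against the distance from the summit in bp, for 6 motifs, in d2-only (red) and d4-only (blue) intronic regions. The E-box CAGGTG peaks at d2-only summits and dips at d4-only summits, GATA does the reverse, and ZIC peaks in both, higher in d2-only regions.

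A majority of the members held at least 1 of 5 motifs (the E-box CAGGTG, ZIC, the octamer, OTX or the composite), 913 of 1614 (56.6%). The same motifs were found in 23.6% of d4-only intronic, 52.2% of d2-only intergenic and 34.6% of the intronic regions called in all 4 libraries, and in 37.1% of all intronic distal regions. These 5 were picked from the 9 motifs already found higher in members than in d4-only regions. The gap to d4-only regions follows from that choice and is given as a description. The E-box and ZIC were found together in 146 members (9.05%), in 62 of which the matches overlapped. The octamer and ZIC were found together in 42 members (2.60%), and the product of their shares was 2.62%. The other 701 members held none of the 5.

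No motif separated intronic from intergenic d2-only regions at the widened level, while 5 of 30 did at the plain 95% level. The E-box CAGGTG lay in 28.1% of d2-only intergenic regions, and the difference of 1.59 points had a widened interval of -3.74 to 6.94. The composite lay in 2.36% of them (-0.00954 points, -1.87 to 1.93) and GATA in 5.17% (1.90 points, -0.939 to 4.85). Against intronic regions called in all 4 libraries, 1 of 30 motifs was higher and 1 was lower in d2-only regions at the widened level. At the plain 95% level 14 of 30 differed, in a class of only 544 regions. The higher was the E-box CAGGTG, with 29.7% against 13.4% (16.3 points, 9.31 to 22.2). The lower was SP, with 7.62% against 18.4% (-10.8 points, -17.5 to -5.09).

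The motif content varied with the strength of the signal. When the members were ranked by their lower d2 ratio, the KLF motif lay in 16.9% of the 538 weakest, 10.8% of the middle 539 and 7.45% of the 537 strongest. The octamer, SOX and composite motifs ran the other way. The octamer lay in 7.81%, 10.6% and 11.5%, the SOX motif in 2.97%, 7.05% and 7.64%, and the composite in 1.12%, 2.97% and 2.98%. The E-box CAGGTG changed little, with 31.4%, 29.9% and 27.7%. The strength was part of the rule, so these shares are given without a test. Regions just outside the rule had lower shares of the octamer and of the E-box CAGGTG. The octamer lay in 6.77% of regions called in a single d2 library and 3.49% of those called in both d2 libraries and 1 d4 library, and the E-box CAGGTG in 26.1% and 18.7%.

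The d2-only intronic regions were richer in GC than the d4-only ones. The mean GC content of the windows was 53.0% ± 0.146 (SE, n = 1614 regions) in d2-only and 51.0% ± 0.118 (n = 1706) in d4-only intronic regions, a difference of 1.99 points (95% interval 1.63 to 2.36). Windows 2000 bp away held 45.0% and 44.0%. The intergenic d2-only regions had 53.1%, a difference of -0.155 points (-0.570 to 0.260), and regions called in all 4 libraries had 56.9% (-3.88 points, -4.51 to -3.25). Bases masked as repeats made up 11.0% of the d2-only and 7.46% of the d4-only windows. The part of GC content and repeats in the motif differences was not tested.

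Host genes were then grouped by function. In each list below, genes are counted only if they held an intronic distal region, and the background for a d2-only region is 27.2% of genes and for a d4-only region 27.8%. No list was tested, and with few genes in most of them the shares are coarse. The pluripotency list held a d2-only region in 3 of 10 genes, near the background, and a d4-only region in 2 of 10. Tet2, an enzyme that oxidises methylated cytosine, had one in intron 1 with ratios of 26.7 and 27.3, with a ZIC match. Esrrb, an orphan nuclear receptor of naive cells, had one in intron 1 with 14.0 and 17.8, and L1td1, an RNA-binding protein of pluripotent cells, one with 7.07 and 8.36 and a GATA match.

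The primed epiblast list had d2-only regions in 5 of 7 genes and d4-only regions in 1 of 7. Fgf5, the growth factor that marks the primed epiblast, held one in intron 1, 1347 bp from the start, with pileups of 40 and 42 and ratios of 16.3 and 15.3, and with E-box CAGGTG, ZIC and GATA matches. A d4 peak lay 961 bp from it. Cdh2 (N-cadherin) held a pair, with ratios of 12.3 and 25.3 and of 12.2 and 9.85. Lef1, a nuclear effector of Wnt signalling, held a pair 826 bp apart, with 12.4 and 12.0 and with 9.07 and 9.24. Dnmt3a, a de novo DNA methyltransferase, and Etv5, an ETS factor downstream of FGF, held 1 each. The 7 members of this list had a median lower ratio of 10.8, below the 14.4 of all members.

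Neural genes held d2-only regions in 6 of 13 and d4-only regions in 3 of 13. Pax3, a factor of the dorsal neural tube and neural crest, had one with ratios of 21.6 and 21.7 and a ZIC match. The neurotrophin receptor genes Ntrk2 and Ntrk3 held a pair each, with lower ratios between 9.79 and 18.6. Zeb2, Meis2 and Nes held the others.

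The list of synaptic and teneurin adhesion genes held the most members, 66 in 28 of 46 genes (60.9%). It held d4-only regions in 25 of 46, so this share was high for both kinds. The genes were long, with a median of 889 kb, and the part of length was not tested. Their members had a median lower ratio of 17.3. Csmd1, a large complement-type membrane protein, held 4, the strongest with ratios of 26.6 and 37.3. Tenm2, a teneurin and ligand of latrophilins, held 4, the strongest with 23.3 and 23.9. The d2-only and d4-only regions were found together in 15 of these genes.

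Genes of signalling pathways had mixed counts. FGF genes held d2-only regions in 3 of 9, with d4-only regions in 4 of 9. A long annotated model of the receptor gene Fgfr2 held 3. The strongest (21.1 and 21.3) and another (21.1 and 23.3) lay in an intron of 2908817 bp. The third, with 13.6 and 21.8, lay in an intron of 19104 bp. Wnt genes held d2-only regions in 6 of 17 and d4-only regions in 4 of 17. The d2-only hosts included Rnf43, a ubiquitin ligase that removes Wnt receptors (15.7 and 18.8), and Ror2, a Wnt receptor (12.0 and 13.1). Notch genes held d2-only regions in 4 of 8 and d4-only regions in 4 of 8. The coactivator gene Maml2 had a pair with lower ratios of 22.2 and 16.4, Maml3 had 3 in intron 1 with lower ratios of 9.85 to 13.9, and the ligand gene Jag1 had a pair with 10.1 and 6.04. Nodal and BMP genes held d2-only regions in 1 of 9, the BMP receptor gene Bmpr1b, which had a pair with lower ratios of 18.9 and 14.1, and d4-only regions in 0 of 9. DNA methylation and Polycomb genes held d2-only regions in 3 of 8, Tet2, Dnmt3a and the histone demethylase gene Kdm4c (12.4 and 15.3, with a GATA match), and d4-only regions in 2 of 8.

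Genes of the later lineages also held regions that were open at d2 and not called at d4. In the endothelial list 8 of 19 genes held a d2-only and 7 of 19 a d4-only region, and 3 held both. Ets1, an ETS factor of endothelial and lymphoid cells, had a d2-only region with ratios of 22.0 and 20.2. Its neighbour Fli1, an ETS factor of endothelial and blood cells, had one with 17.7 and 31.4 and an E-box CAGGTG match. Prkch, a protein kinase C, had one with 17.1 and 23.9.

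In the cardiac and cardiopharyngeal list 3 of 15 genes held d2-only and 7 of 15 held d4-only regions. Besides Ebf1, Ryr2, the calcium release channel of heart muscle, had a d2-only region in intron 24 with 20.6 and 34.4. Mef2c, a factor of heart and vessels, had one with 16.7 and 20.9 that held the E-box CAGGTG, ZIC and octamer letters together. Both genes' regions were above the median of the members in both d2 libraries.

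The haematopoietic list had 4 of 8 genes for either kind, and its d2-only regions lay in Ptprc (CD45), with ratios of 18.6 and 25.4, in Zfpm1 (FOG1, a partner of GATA factors), with 14.3 and 12.9, in Myb, with 14.1 and 11.4, and in Runx1. The early mesoderm list held them in 2 of 4 genes, Meox1 (13.6 and 14.3) and Cdx1 (6.87 and 8.05), and no d4-only region. The endoderm list held a d2-only region in 1 of 8, Hnf4a (10.7 and 20.8), and d4-only regions in 4 of 8. The trophoblast and surface ectoderm list held a d2-only region in none of 4 genes and a d4-only region in 1, and the single ubiquitously expressed gene with an intronic distal region held none.

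**Figure D5:**
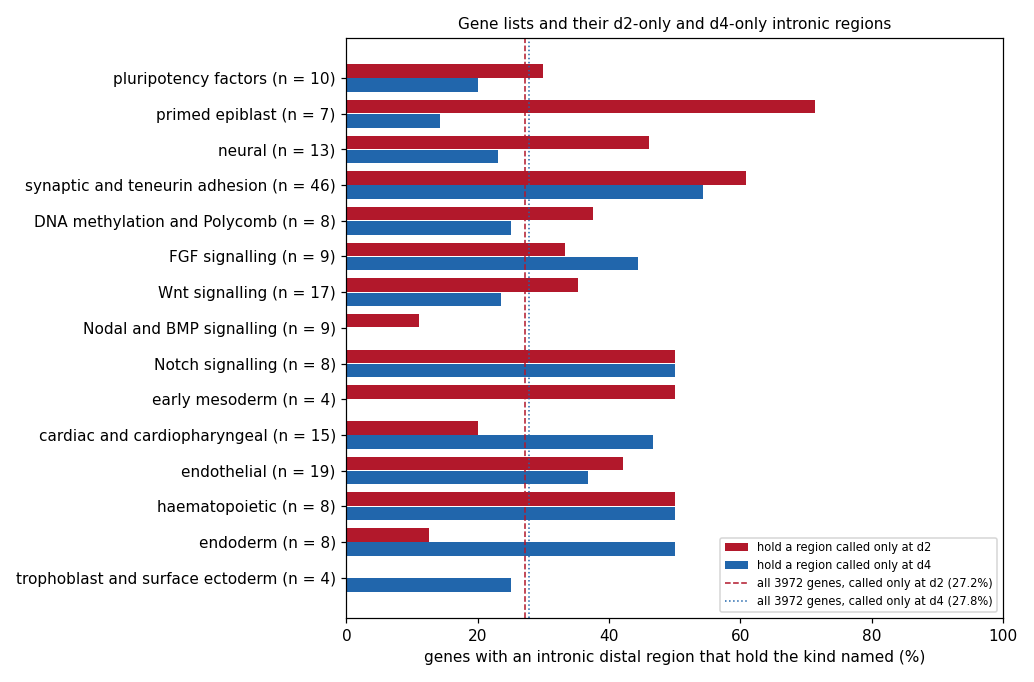
Bars give, for each gene list, the share in percent of its genes with an intronic distal region that held a d2-only (red, above) or a d4-only (blue, below) one, with the number of such genes in brackets. Dashed and dotted lines mark the shares over all 3972 genes, 27.2% and 27.8%. The primed epiblast list stands at 5 of 7 genes for d2-only regions, and the synaptic and teneurin adhesion list is high for both kinds.

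The members with a composite match lay in genes of varied function. In Ebf1 the region with the perfect match had ratios of 18.9 and 22.7 (chr11:44841783-44841989, intron 6). Pak7, a p21-activated kinase, had 26.4 and 22.8, Ctnnd2 (delta-catenin, of neuronal junctions) had 19.4 and 24.8, Suclg2, a subunit of succinyl-CoA ligase, had 21.0 and 18.2, Fbxl17, a substrate receptor of ubiquitin ligases, had 18.3 and 15.4, and Pdcl2 had 13.4 and 15.6. Among the genes with most members, Anks1b, Clybl and Ptprn2 also held a member each with a composite match, as did Csmd1, Tenm2, Maml3 and Fgfr2. The one in Fgfr2 lay in the intron of 2908817 bp.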

How the data were processed

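Per the study's methods and the submitters' notes, the authors ran FastQC and cutadapt on the reads, used Bowtie2 to align to mm10, and called peaks with MACS2 in each library alone, with no control library and no pooling, and removed blacklisted regions. The labels gave each library its day and replicate number. The authors deposited, for each peak, a fold enrichment (a ratio over the local background, with a pseudocount) and −log10 p and q values as MACS2 gives them, with q below about 0.001, together with the summit position. Read counts were not used here.

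Whole-number pileups and the local background were solved from the deposited fold and −log10 p of each peak, to a tolerance of 0.01, and all peaks were solved. Peaks were merged and annotated with GENCODE release M21, and sequence came from the GRCm38.p6 (mm10) assembly. The host of a region was the protein-coding gene whose own start lay nearest. Intron numbers are those of its longest spliced transcript that spans the region, coding or not. They can therefore come from different transcripts for regions of the same gene. The 30 motifs were searched on both strands, in 201-bp windows, with up to 2 mismatches for the OCT4-SOX2 composite, 1 for RFX and none for the others. Besides the motifs spelled out above, these were CTTTGAT of TCF-LEF, CACGTG of MYC, TAATTA of homeodomain factors, GGTGTGA of T-box factors, TGTGGATT of FOXH1, CCAATCA of NFY, ACATGTC of the p53 family, CTAAAAATA of MEF2, TTCCNGGAA of STAT, GCCNNNGGC of TFAP2, AAGATGGC of YY1 and the longer motifs of CTCF and RFX, none of which was called against any class. Shares carry Wilson intervals, differences of shares Newcombe intervals at 95% and at the Bonferroni level for 90 comparisons, and mean GC a normal interval. Scripts were tested on simulated data. Alternatives to the merging, peak limit, libraries, annotation, window and summit were tried. Python was used with numpy 2.4.6, pandas 2.3.3, scipy 1.17.1 and pysam 0.24.0.

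The members, motifs and the 16 gene lists were chosen with earlier results of these data known. Named genes are the hosts of the 10 members with the highest lower d2 ratio, the 10 hosts of most members (ties by the summed lower ratio), up to 3 hosts per list and the hosts of the 6 members closest to the composite, with chromosome 18 left out of this last choice only. Zeb2, Meis2, Nes and Runx1 complete small counts and were named after their values were seen, as was Gm13465 for its sequence. A region that the naming rule selected is not reported here.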

Additional observations from a re-analysis of the deposited data

How the results depend on the processing

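No paired analysis was possible because the peak lists hold no reads per region and no comparison of d4 with d2 libraries was tested. The composite, GATA and GC differences between d2-only and d4-only intronic regions kept their direction and their call in all 15 alternatives, as did CAGGTG, ZIC, the octamer, OTX, ETS and TEAD. The number of d2-only intronic regions fell to 740 at a −log10 q of at least 10 and to 688 with the 15000 strongest peaks of each library, and ranged from 1754 to 3375 when each library was left out in turn. The number of motifs called against d4-only regions was 8 at a −log10 q of at least 10, where fewer regions were compared, and 14 to 16 with a library left out. The host promoter difference was no longer called with a 50% reciprocal overlap (-4.25 points), at a −log10 q of at least 10 (-3.63 points) and with the 15000 strongest peaks (-2.91 points), and ranged from -7.59 to -3.55 points with a library left out. The cause was not tested. The median distance to a start was 15.2 kb with a promoter limit of 2500 bp and 18.1 kb with protein-coding genes only, both of which remove near regions by construction. With a library left out, the composite difference ranged from 1.56 to 2.12 points, the GATA difference from -29.5 to -26.1 points, the GC difference from 1.35 to 2.50 points and the median distance from 11.9 to 12.3 kb. Among 1350 further values, mostly single motifs, 28 lost and 35 gained a call and none reversed. In windows of 50 bp on each side of the summit, which hold fewer bases, the differences were smaller, at 13.7 points for CAGGTG, 7.98 for ZIC, 4.09 for the octamer, 1.94 for OTX and 1.36 for the composite. SOX was called in 8, GRHL in 8, AP-1 in 7, KLF in 12, SP in 13 and forkhead in 14 of the 15, and no motif was called against d2-only intergenic regions in any. Peak calls set what can be seen, since a region below the limit of a library is absent from its list at any level.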
